A study of Rattus norvegicus with 4 samples.

Results

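The genes examined were the 8 that encode the enzymes between lanosterol and cholesterol, namely Cyp51, Tm7sf2, Msmo1, Nsdhl, Hsd17b7, Ebp, Sc5d and Dhcr7. They were chosen by name, as the rows of the count table with one of these symbols, and each symbol had 1 row among the 32545 listed genes. Messenger RNA from rat liver was sequenced in 4 libraries, 2 from rats kept under forced activity alone, the control, and 2 from rats under forced activity plus sleep restriction, so that both groups share the forced movement. The strain, age, sex and duration are not given in the sources used here, and nothing says that libraries of a group came from separate animals, so p-values measure only the spread between these libraries.

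Cholesterol is made from lanosterol on the endoplasmic reticulum by demethylation, reduction and isomerisation of the sterol rings and reduction of the side chain. The liver is a major site of this synthesis and also turns cholesterol into bile acids. Genes of the whole pathway are known targets of SREBP-2, the transcription factor encoded by Srebf2, which is released from the endoplasmic reticulum when membrane sterol is low. On many such promoters it acts beside the general factors NF-Y and Sp1.

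No enzyme gene passed the test between the groups, and the 8 genes differed in the direction of their group means. The means of Cyp51, Msmo1, Nsdhl, Hsd17b7, Sc5d and Dhcr7 were higher under sleep restriction and those of Tm7sf2 and Ebp were lower. In edgeR's quasi-likelihood test the log2 changes ran from -0.37 to 0.90, and every one of the 8 had a Benjamini-Hochberg adjusted p of 0.999 over the 4986 genes tested. Over all tested genes 0.0201% were called at an adjusted p under 0.05. At an unadjusted p under 0.05 there was 1 enzyme gene, Hsd17b7, against 4.21% of all tested genes; limma-voom also gave 1 and DESeq2 gave 0, with none called by either after adjustment. The median log2 change of the 8 genes was 0.36, and that of all tested genes was 0.00337.

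Promoters are shown for Cyp51, Msmo1 and Nsdhl, which act early and had 1 common order of levels over the libraries, an order that Sc5d shared, and for Ebp, the steadiest of the 8, whose mean was lower. They are RefSeq sequences of build GRCr8, from 250 bases before to 50 after the gene start, and all 8 genes had an entry. Capitals mark CCAAT, the NF-Y box, and GGGCGG, the Sp1 box, on either strand, so that ATTGG and CCGCCC are the same boxes read on the opposite strand.
Cyp51, chr4:30991443-30991742, plus strand: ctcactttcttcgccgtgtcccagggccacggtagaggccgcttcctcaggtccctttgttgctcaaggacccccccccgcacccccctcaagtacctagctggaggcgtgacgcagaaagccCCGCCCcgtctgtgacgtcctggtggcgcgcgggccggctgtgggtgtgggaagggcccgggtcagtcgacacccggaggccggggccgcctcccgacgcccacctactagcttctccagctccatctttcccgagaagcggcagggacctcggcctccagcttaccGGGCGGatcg
Msmo1, chr16:29746863-29747162, plus strand: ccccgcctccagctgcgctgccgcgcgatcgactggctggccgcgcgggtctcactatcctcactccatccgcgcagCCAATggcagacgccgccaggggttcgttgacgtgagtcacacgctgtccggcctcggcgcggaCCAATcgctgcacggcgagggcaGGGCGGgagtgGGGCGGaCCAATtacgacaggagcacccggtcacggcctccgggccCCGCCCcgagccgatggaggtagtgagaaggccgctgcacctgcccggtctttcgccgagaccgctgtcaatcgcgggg
Nsdhl, chrX:155817110-155817409, plus strand: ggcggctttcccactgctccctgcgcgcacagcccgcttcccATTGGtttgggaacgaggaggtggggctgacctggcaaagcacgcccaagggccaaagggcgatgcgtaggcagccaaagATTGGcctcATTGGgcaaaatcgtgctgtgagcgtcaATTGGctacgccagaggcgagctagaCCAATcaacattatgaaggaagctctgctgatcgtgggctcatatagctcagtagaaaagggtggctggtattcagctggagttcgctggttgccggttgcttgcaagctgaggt
Ebp, chrX:16971212-16971511, plus strand: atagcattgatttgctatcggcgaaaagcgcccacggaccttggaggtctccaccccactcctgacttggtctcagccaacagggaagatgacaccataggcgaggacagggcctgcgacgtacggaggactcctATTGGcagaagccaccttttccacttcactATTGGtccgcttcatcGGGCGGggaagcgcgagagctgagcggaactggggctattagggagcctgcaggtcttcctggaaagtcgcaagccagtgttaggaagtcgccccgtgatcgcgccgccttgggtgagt

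Nsdhl had 5 CCAAT boxes and no GGGCGG, Msmo1 had 3 of each, Ebp had 2 and 1, and Cyp51 had no CCAAT and 2 GGGCGG. Of the 8 promoters, 6 held a CCAAT, all but those of Cyp51 and Dhcr7, and 7 held a GGGCGG, all but that of Nsdhl. Among all 33469 promoters of this length 37.5% held a CCAAT and 33.1% a GGGCGG, and among the 4123 promoters that carry the symbol of a tested gene the shares were 39.2% and 63.2%. In Dhcr7 the pair of GGGCGG matches overlap. The sterol regulatory element searched for, TCACNCCAC on both strands, was in none of the 8 windows and in 1.12% of all promoters, and no match says only that these letters are not there.

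Levels are given as normalised read counts, counts per 1e+06 counts of the tested genes with TMM scaling (CPM), with SD over 2 libraries. They were compared between libraries for a gene and not between genes, because transcript lengths were not used here.

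**Figure D1:**
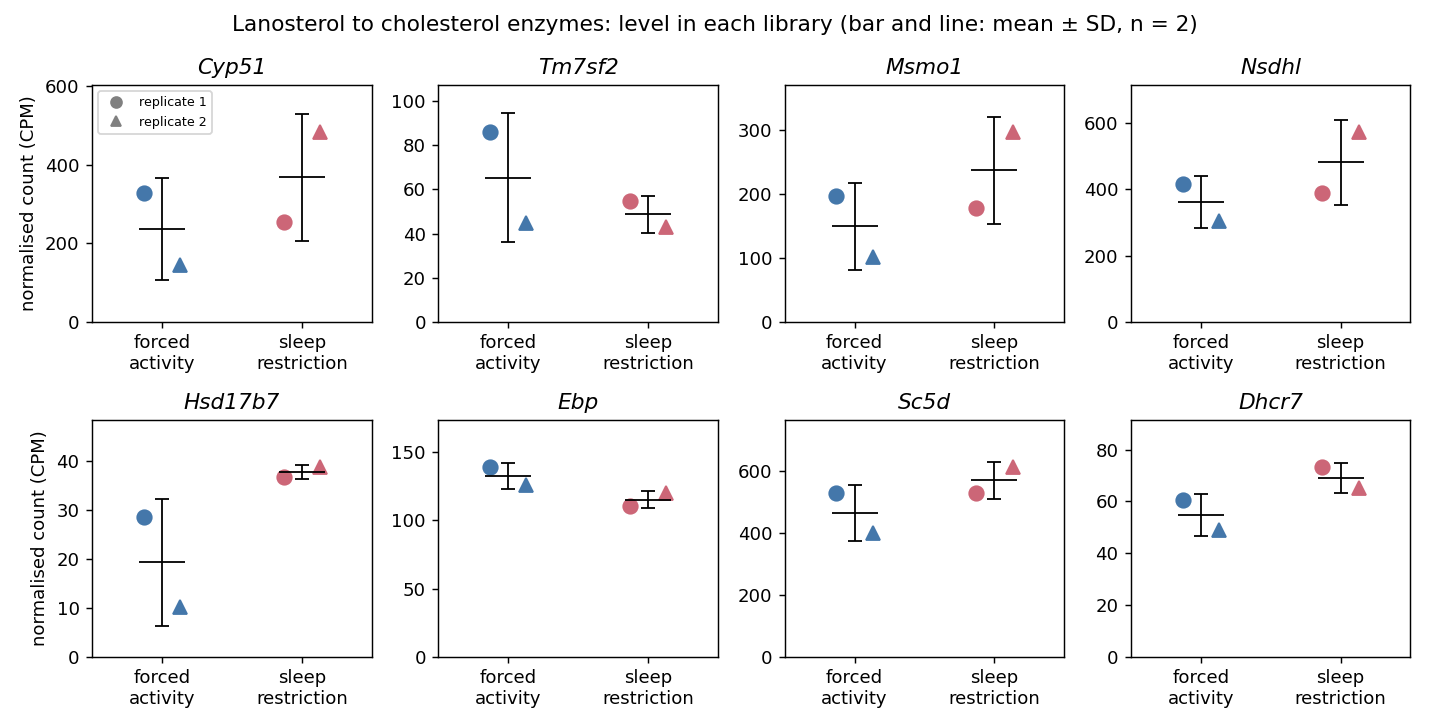
Level of each enzyme gene in CPM (vertical axes from 0) in the 2 forced activity and 2 sleep restriction libraries. Circles are replicate 1, triangles replicate 2, and lines with bars are mean ± SD; the groups are apart for Hsd17b7, Ebp and Dhcr7 and overlap for the other 5 genes.

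Cyp51, the cytochrome P450 that removes the first methyl group from lanosterol, spans chromosome 4 from 27175243 to 27194018 in the count table's build, rn6. Its level was 327 CPM in forced activity 1 and 144 CPM in forced activity 2, against 254 CPM in sleep restriction 1 and 482 CPM in sleep restriction 2. The groups overlapped, with forced activity 2 lowest and sleep restriction 2 highest, at 3.36 times the lowest. The means were 235 ± 130 and 368 ± 161 CPM (SD, n = 2 each), a log2 change of 0.64 (SE 0.42), the widest error of the 8 genes.

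Tm7sf2 encodes a sterol reductase that saturates the ring double bond left by CYP51, a step that Lbr, the lamin B receptor, can also carry out. It measured 85.8 and 44.6 CPM under forced activity and 54.5 and 42.7 CPM under sleep restriction. Forced activity 1 stood above the other 3 libraries, which lay close together, and the log2 change was -0.37 (SE 0.31). Without forced activity 1 the fitted change was 0.12, so the direction rests on that library. Lbr held between 0 and 1.8 counts per library, too few to test.

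Msmo1 and Nsdhl act one after the other in removing the remaining surplus methyl groups, Msmo1 as the methylsterol oxidase and Nsdhl as the decarboxylating dehydrogenase. Msmo1 measured 197 and 102 CPM under forced activity and 178 and 297 CPM under sleep restriction, with means of 150 ± 67.8 and 237 ± 84.4 CPM and a log2 change of 0.66 (SE 0.33). Nsdhl measured 417 and 306 CPM, then 390 and 572 CPM, with means of 361 ± 78.5 and 481 ± 129 CPM and a log2 change of 0.41 (SE 0.24). Both genes had the library order of Cyp51: forced activity 2 lowest, sleep restriction 1 below forced activity 1, and sleep restriction 2 highest.

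Hsd17b7, the ketone reductase that completes each of those demethylation rounds, is also known as a reductase of oestrone. The controls held 13.4 and 5.2 counts of it and the sleep restriction libraries 18 and 19, few enough that counting error is wide. In CPM these were 28.4 and 10.1, then 36.6 and 38.7, so both sleep restriction libraries lay above both controls. The means were 19.3 ± 12.9 and 37.6 ± 1.43 CPM, and edgeR gave a log2 change of 0.90 (SE 0.35, unadjusted p 0.0247). Only 1 of its forced activity libraries reached 10 counts, against both sleep restriction libraries, so it could not have passed the filter on low counts through the controls alone.

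Ebp, the isomerase that shifts the ring double bond and is also known as a binding protein for the drug emopamil, was the steadiest of the 8. It measured 139 and 126 CPM under forced activity and 111 and 120 CPM under sleep restriction. Both sleep restriction libraries were below both controls, and the highest library was only 1.26 times the lowest. The log2 change was -0.20 (SE 0.21).

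Sc5d, the desaturase that follows, measured 529 and 400 CPM under forced activity and 528 and 612 CPM under sleep restriction. The replicate 1 libraries of the groups were nearly equal, and the log2 change was 0.29 (SE 0.21). Dhcr7, which reduces a ring double bond and draws on the sterol from which skin makes vitamin D, measured 60.6 and 49.1 CPM, then 73.3 and 65.1 CPM. Its groups were apart, and its log2 change was 0.31 (SE 0.24).

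In all, Hsd17b7 and Dhcr7 had both sleep restriction libraries above both controls, 2 of 8 genes against 17.2% of all tested genes, and Ebp had both below, 1 of 8 against 15.3%. Hsd17b7 could not have passed the filter through the controls alone, so its place in these counts is not independent of the filter. In 5 of 8 genes, Cyp51, Msmo1, Nsdhl, Hsd17b7 and Sc5d, forced activity 2 was the lowest and sleep restriction 2 the highest of the 4 libraries, an order found in 12% of all tested genes. This order was picked out after the values were seen. It was also present in 6 of 8 tested genes from mevalonate to lanosterol. SREBP control and uptake had it in 3 of 9 tested genes, and sterol removal and use in 2 of 9. Summed over the 8 genes, forced activity 1 held 1784 CPM and forced activity 2 held 1181 CPM, while sleep restriction 1 held 1625 CPM and sleep restriction 2 held 2230 CPM, so the controls lay on both sides of sleep restriction 1.

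**Figure D2:**
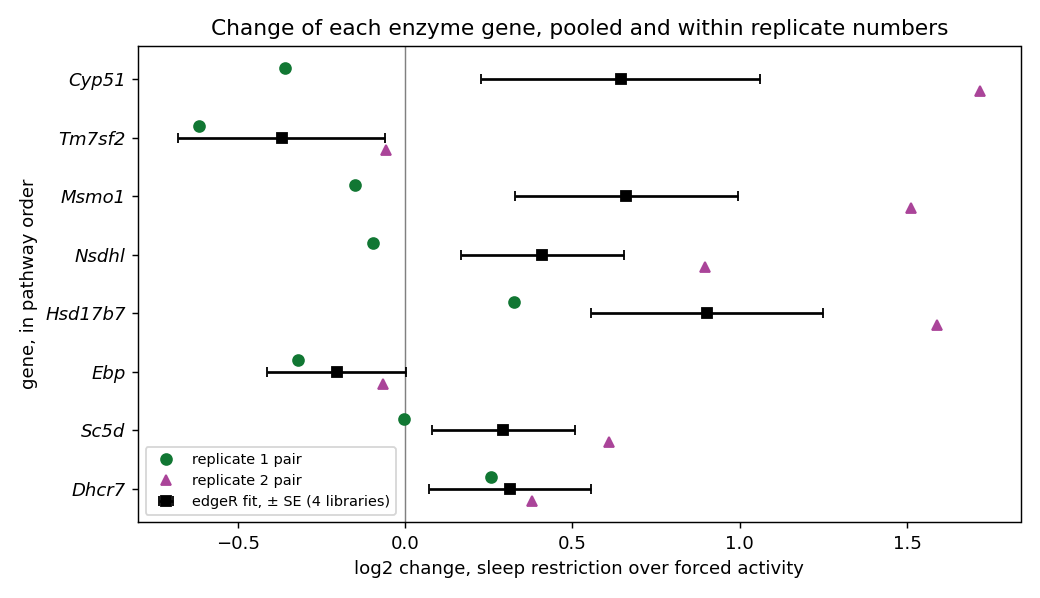
Log2 change of each enzyme gene, sleep restriction over forced activity (horizontal axis), in pathway order from top to bottom. Squares with bars are the edgeR change ± SE over 4 libraries, circles the replicate 1 pair and triangles the replicate 2 pair; Cyp51 lies at -0.36 in one pair and 1.72 in the other, while Dhcr7 lies at 0.26 and 0.38.

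For 4 of the enzymes the sign of the difference changed with the replicate number, which the labels do not tie to animals or batches. Between the replicate 1 libraries the log2 difference, sleep restriction minus forced activity, was -0.36 for Cyp51, -0.15 for Msmo1, -0.094 for Nsdhl and -0.0025 for Sc5d. Between the replicate 2 libraries the same genes had 1.72, 1.51, 0.90 and 0.61. Such a change of sign, lower in the replicate 1 pair and higher in the replicate 2 pair, was present in 4 of 8 enzyme genes and in 22% of all tested genes.

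Hsd17b7 and Dhcr7 were higher in both pairs, 2 of 8 genes against 28.7% of all tested genes. The limit that the filter sets on Hsd17b7 holds here too. Hsd17b7 had 0.33 and 1.59, and Dhcr7 had 0.26 and 0.38, which was more even. Tm7sf2 and Ebp were lower in both pairs, against 27.4% of all tested genes, with -0.62 and -0.06 for Tm7sf2 and -0.32 and -0.07 for Ebp. In all 8 genes the difference was greater, or less negative, in the replicate 2 pair, which held for 50.7% of all tested genes. The median over the 8 genes was -0.12 in the replicate 1 pair and 0.75 in the replicate 2 pair.

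The libraries of a group also differed among themselves, which restates in part the differences between the pairs. All 8 genes were lower in forced activity 2 than in forced activity 1, with a median log2 difference of -0.66, with -1.19 in Hsd17b7, -1.16 in Cyp51, -0.93 in Msmo1, -0.44 in Nsdhl and -0.14 in Ebp. In the sleep restriction group 6 of 8 genes were higher in library 2 than in library 1, with a median of 0.16, 0.91 in Cyp51, 0.73 in Msmo1 and 0.55 in Nsdhl. Over all tested genes the median of the same difference, library 2 minus library 1, was -0.012 under forced activity and -0.00034 under sleep restriction. The median size of the gap between libraries of a group over all tested genes, whatever its sign, was 0.25 under forced activity and 0.29 under sleep restriction. For Cyp51, Msmo1 and Nsdhl the gaps within both groups therefore exceeded the fitted changes between the groups, 0.64, 0.66 and 0.41.

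**Figure D3:**
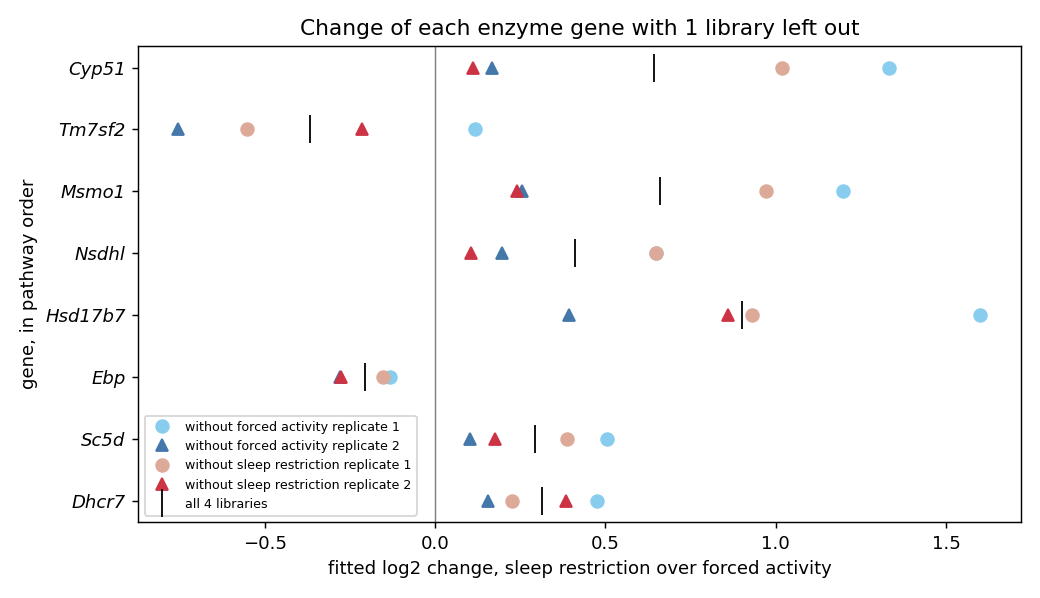
Fitted log2 change of each enzyme gene (horizontal axis) with all 4 libraries (vertical ticks) and with 1 library left out (points). Without forced activity 2 or sleep restriction 2 the change of Cyp51 is 0.17 and 0.11, and Tm7sf2 moves across 0 to 0.12 without forced activity 1.

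With 1 library left out, no enzyme gene was called, and 7 of the 8 kept their direction, Tm7sf2 being the exception. Cyp51 ran from 0.11 without sleep restriction 2 to 1.33 without forced activity 1, and Msmo1 from 0.24 to 1.20 with the same libraries left out. Nsdhl ran from 0.11 to 0.65, Hsd17b7 from 0.39 without forced activity 2 to 1.60 without forced activity 1, and Sc5d from 0.10 to 0.50 in the same way. Dhcr7 ran from 0.16 to 0.48 and Ebp from -0.28 to -0.13.

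The libraries also differed in the number of genes detected and in marker levels. The tabulated counts summed to between 508202.6 and 520275.6 per library. Genes above 0 numbered 14008 and 14105 in the replicate 1 libraries and 11943 and 10952 in the replicate 2 libraries. These numbers are not measured alike, because sleep restriction 2 has whole values at 32544 of 32545 genes. In the other libraries a value of 0.1 is enough to be above 0. Markers of hepatocytes, 10 of 10 tested and led by albumin (Alb), summed to 206874 and 206866 CPM under forced activity and 210938 and 219395 CPM under sleep restriction. Markers of endothelial cells, 8 of 12 tested with Pecam1 unmatched and none of the other 11 at 0 in every library, summed to 265 and 725 CPM, then 676 and 368 CPM. Macrophage markers, 10 of 10 tested, summed to 638 and 826, then 1004 and 684 CPM, and bile duct markers, 0 of 5 tested, to between 24.4 and 37.1 CPM. Red cell markers, 4 of 6 tested, summed to 926 and 1927, then 1234 and 761 CPM. Stellate markers, 6 of 8 tested, summed to 674 and 606, then 746 and 560 CPM. Pericentral hepatocyte markers summed to 7906 and 7529, then 8923 and 6971 CPM, and periportal ones to 9186 and 8554, then 11169 and 8107 CPM. The endothelial and red cell sums were highest in forced activity 2, where 6 of the 8 enzyme genes were lowest. The red cell sum was lowest in sleep restriction 2, where 5 of the 8 were highest. The endothelial sum was instead lowest in forced activity 1. The macrophage, stellate, pericentral and periportal sums were highest in sleep restriction 1. Such sums follow the most abundant markers, and the median log2 CPM over tested markers, each centred on its mean, differed in part. For stellate markers this median was highest in forced activity 2, at 0.21 against 0.15 in sleep restriction 1. The pericentral median was 0.16 in both forced activity 1 and sleep restriction 1. Macrophage and periportal medians were highest in sleep restriction 1, at 0.41 and 0.24. The part of detection depth or of other cells in these differences was not tested, and in bulk tissue fewer cells of a type and less RNA per cell cannot be told apart.

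Of the 5 listed electron donors 4 were tested and none was called. Their changes were positive in 1 and negative in 3, with a median of -0.03 on the log2 scale. Por, the reductase that feeds electrons to CYP51, had a log2 change of -0.04 (SE 0.21), with 623 and 577 CPM and then 674 and 490 CPM. Cyb5a, the other cytochrome b5 of the list besides Cyb5b, had -0.02 (SE 0.19). Cyb5b, the only tested gene of this list with a positive change, had 0.35 (SE 0.22). It measured 95.6 and 78.7 CPM under forced activity and then 108 and 114 CPM, both above the controls. Cyb5r3, the reductase of such cytochromes, had -0.07 (SE 0.20).

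Upstream, of 11 listed genes from mevalonate to lanosterol 8 were tested and 0 were called in edgeR, where 3 had an unadjusted p under 0.05. All 8 changes were positive, and their median on the log2 scale was 0.50. Of all tested genes 52.5% had a positive change. In 5 of those 8 both sleep restriction libraries lay above both controls, against 17.2% of all tested genes, and 5 were higher in both replicate pairs, against 28.7%. The medians of the replicate pairs were 0.13 and 1.11. Hmgcs1, the synthase at the pathway's start, had a log2 change of 1.19 (SE 0.32), Idi1, the isopentenyl isomerase, 0.82 (SE 0.25), and Sqle, the squalene oxidase, 0.65 (SE 0.27). The difference between the upstream and the later genes was not tested.

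Among 11 genes of SREBP control and uptake, 9 were tested, 6 with a positive and 3 with a negative change and none called. Insig1, an endoplasmic reticulum anchor that is itself an SREBP target, had a log2 change of 0.76 (SE 0.26), and Stard4, a sterol carrier, had -0.90 (SE 0.36). Srebf2 had 0.32 (SE 0.30), with 65.9 and 33.7 CPM under forced activity and 58.8 and 65.1 CPM under sleep restriction. Of 11 genes of sterol removal and use, 9 were tested and none was called, 3 with a positive change, and their median was -0.02. Cyp7a1, which sets the rate of bile acid synthesis, had 1.46 (SE 0.36), Abca1, a cholesterol exporter, 0.44 (SE 0.23), and Abcg5, part of the canalicular sterol exporter, -0.81 (SE 0.34). At an unadjusted p under 0.05, which 4.21% of all tested genes reached, edgeR had 2 of 9 genes of SREBP control, 2 of 9 of sterol removal and 0 of 4 electron donors. DESeq2 had 0, 1 and 0 there and limma-voom 2, 1 and 0, and after adjustment both tools called 0 genes of the upstream, control, removal and donor lists.

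**Figure D4:**
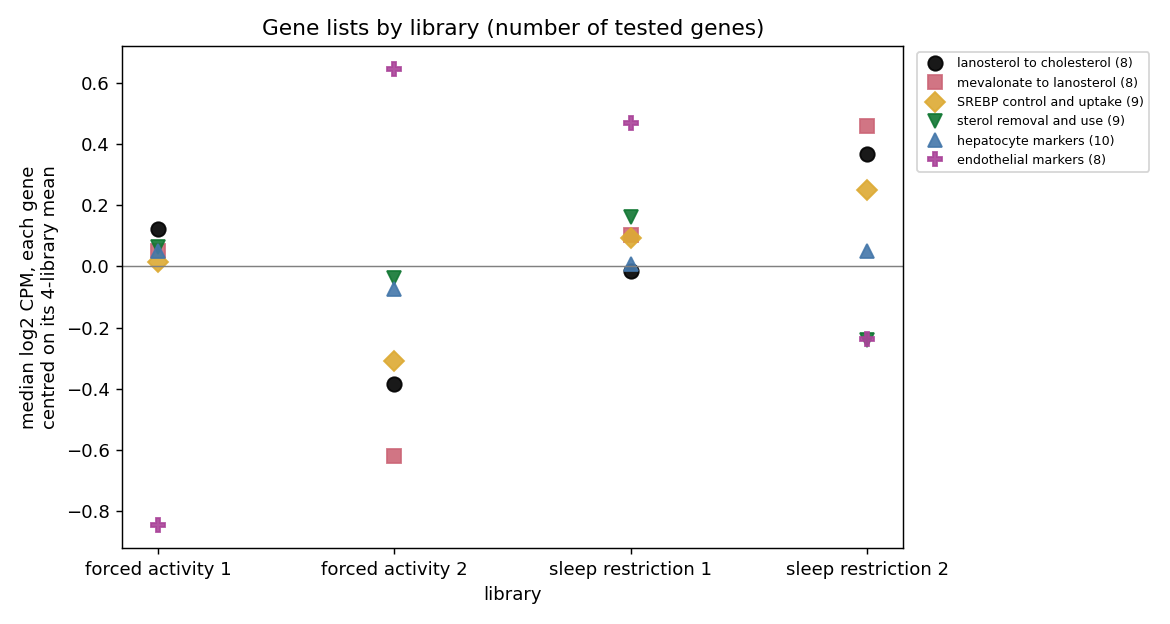
Median of log2 CPM over the tested genes of each list, each gene centred on its mean over 4 libraries (vertical axis), in the 4 libraries (horizontal axis). The 8 later enzyme genes lie at 0.12, -0.39, -0.01 and 0.37 from left to right, the upstream genes at 0.05, -0.62, 0.10 and 0.46, and the endothelial markers at -0.85, 0.65, 0.47 and -0.24.

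The mean centred profile of the 8 enzyme genes over the 4 libraries was 0.16, -0.52, 0.04 and 0.31 on the log2 scale, in the order forced activity 1 and 2, sleep restriction 1 and 2. Among 4978 other tested genes, those closest to it by Euclidean distance over the 4 libraries were Zfyve21 (0.04), Tp53i3 (0.08), RGD1304567 (0.10), Shpk (0.11) and Mtmr6 (0.13). None of these 5 is a gene of the lists above. Srebf2 ranked 24th with a distance of 0.17, and Sqle ranked 240th. Hmgcs1, at rank 3720, and Cyp7a1, at rank 4675, were far from it. These distances describe 4 libraries only.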

How the data were processed

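Liver messenger RNA was measured in 2 forced activity and 2 sleep restriction libraries, grouped by their titles. The submitters' processing notes name CASAVA, STAR 2.4.1d and rn6 without saying what each did, and what counted the reads is not stated in them. Estimated counts for each Ensembl gene were deposited by the authors, all 130180 of them multiples of 0.1, with totals that are close to equal. Sleep restriction 2 has values that are whole at 32544 of 32545 genes, as after drawing the other libraries down to it and averaging draws, a reading from the values and the table's name, which also marks sense-strand counts. Such averaging lowers counting noise in the other libraries, which the test does not model.

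Values were rounded and tested in edgeR 4.0.16 (R 4.3.3) with TMM factors of 0.972, 1.04, 1.00 and 0.989, filterByExpr with a minimum count of 10, robust quasi-likelihood and p-values adjusted by Benjamini-Hochberg over the 4986 genes that passed, threshold 0.05. Log2 changes use a prior count of 2, which understates those of low genes, and SE is the size of the change over the square root of F. limma 3.58.1 and DESeq2 1.42.0 were alternatives, and the test was checked on simulated counts. The 8 genes and all lists were chosen with earlier results of these data known. Named are all 8, up to 3 genes of each sterol list by smallest p, a fixed set (Lbr, Por, Hmgcs1, Sqle, Insig1, Srebf2, Cyp7a1 among them) and the 5 genes closest in profile; certain genes under this rule are not reported here. Cyb5a is named in addition, as the other cytochrome b5 of its list. The libraries share replicate numbers, which the labels do not tie to animals or batches.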

Additional observations from a re-analysis of the deposited data

How the results depend on the processing

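No enzyme gene was called under any of the 13 alternative fits, in which 7 kept their direction throughout and Tm7sf2 ran from -0.75 without forced activity 2 to 0.12 without forced activity 1. Across the 9 alternatives that keep all libraries, the median log2 change of the 8 genes lay between 0.33 and 0.37. With 1 library left out it lay between 0.14 and 0.58. Within replicate 1 it was -0.12, and Cyp51 (-0.36), Msmo1 (-0.15), Nsdhl (-0.094) and Sc5d (-0.0025) were negative there, while within replicate 2 the median was 0.75. The count of called genes over the whole table was 1, against 0 with limma-voom and without robust estimation, 2 with DESeq2, 5 without a gene filter, and 0 to 0 when single libraries were dropped, a fit that takes the remaining library of a group to be as variable as the other group. With replicate number as a block 5 genes were called and none of the 8; the numbers were not taken as pairs (correlation of deviations 0.206, with 2 pairs). The smallest adjusted p of the 8 under the block was 0.674. Hsd17b7 rests on 5.2 to 19 counts per library.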
